A study of Mus musculus with 6 samples.

Results

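The 8 genes described here encode parts of the dystrophin complex and of the muscle cell membrane, or sarcolemma: *Dmd*, *Utrn*, *Dag1*, *Sgca*, *Sgcb*, *Sgcd*, *Dysf* and *Cav3*. They were picked by symbol from the 47729 genes in the tables of each mouse, and all 8 were found once. Brown adipose tissue (BAT), the heat-producing fat, was taken from male wild type C57BL/6J mice, 3 fed a 45% high-fat diet (HFD) and 3 a standard rodent diet (LFD), from 6 to 10 weeks of age. The study took the right interscapular depot and chose the sequenced mice of each diet as those with the most, intermediate and least fat mass. Nothing in the labels says which replicate number is which of these. Values per mouse follow the replicate numbers, 1 to 3, of each diet.

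In striated muscle, dystrophin and its paralog utrophin tie the actin cytoskeleton to dystroglycan, which binds laminin outside the cell. The sarcoglycans form a subcomplex beside dystroglycan, and the syntrophins and dystrobrevins bind dystrophin from within. Dysferlin takes part in the resealing of torn membrane, and caveolin-3 is the caveolin of muscle caveolae. Several of these genes are known mainly from muscle (*Sgca*, *Cav3* and the full-length form of *Dmd*), while *Utrn*, *Dag1*, *Sgcb* and a short form of *Dmd* are used in many tissues.

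Each mouse had 17156991 to 21603487 rounded counts, and mitochondrially encoded genes took 3.87% to 22.7% of them. The 20 markers of skeletal muscle fixed for this comparison were each lower in all 3 HFD-fed than in all 3 LFD-fed mice. In TPM, the abundance of a gene's transcripts corrected for length and scaled to a fixed total per mouse, they summed to 15.5 to 223.1 in HFD-fed and to 2088 to 14726 in LFD-fed mice, with the highest sum in LFD replicate 2. The brown adipocyte list summed to 1658 to 6504 TPM in HFD-fed and 260.1 to 1814 TPM in LFD-fed mice, and 3 of its 10 genes did not overlap between the diets. Its best known gene, *Ucp1*, the uncoupling protein of brown fat, was present in every mouse and lowest in LFD replicate 2, at 11.03 TPM. Cardiac muscle markers were near 0, at summed levels of 0.530 to 3.67 TPM over all mice, and 1 of the 6 was higher in every HFD-fed mouse. Of the lists for other cell types, 1 of 10 smooth muscle and mural genes, 1 of 8 macrophage genes and 3 of 7 fibroblast genes were lower in every HFD-fed mouse, while 6 of 11 T and NK cell genes and 2 of 7 Schwann cell genes were higher. In TPM, on which all these marker counts rest, 11.6% of all tested genes lay fully lower and 1.65% fully higher with HFD. The counts of 1 of 10 and 1 of 8 lower genes are near that share. The endothelial, general adipocyte and red blood cell genes overlapped between the diets. In whole tissue, fewer cells of a type and less RNA per cell cannot be told apart.

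*Dmd* lies on chromosome X from 82948870 to 85206141 (GRCm38, + strand) and is read from several start sites. The window around its upstream start reaches just past 82948903, the first base of the full-length transcript. The window around an internal start lies just before the first base, 85048413, of a short coding transcript. Both *Dmd* windows are shown with those of *Sgca* and *Cav3*, since these 3 genes had the largest differences between the diets. Each window holds 250 bases before and 50 after the start and is read 5′ to 3′ along the gene, from RefSeq on GRCm38.p6. Capitals mark E-boxes (CANNTG), the sequence bound by myogenic and other basic helix-loop-helix factors, which 72.3% of all 32851 such windows hold at least once.
Dmd upstream start, chrX:82948620-82948919, + strand: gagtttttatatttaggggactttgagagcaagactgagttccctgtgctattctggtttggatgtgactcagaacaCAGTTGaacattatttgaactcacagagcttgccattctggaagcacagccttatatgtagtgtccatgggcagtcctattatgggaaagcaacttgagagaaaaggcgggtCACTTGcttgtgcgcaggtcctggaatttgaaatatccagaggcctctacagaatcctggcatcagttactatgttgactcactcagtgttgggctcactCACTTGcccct
Dmd internal start, chrX:85048045-85048344, + strand: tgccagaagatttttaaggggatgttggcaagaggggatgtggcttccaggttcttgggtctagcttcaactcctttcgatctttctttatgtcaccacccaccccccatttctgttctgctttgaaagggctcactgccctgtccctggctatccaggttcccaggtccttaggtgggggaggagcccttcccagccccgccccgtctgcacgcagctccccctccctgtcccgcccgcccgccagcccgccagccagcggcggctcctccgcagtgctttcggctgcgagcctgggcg
Sgca, chr11:94976278-94976577, - strand: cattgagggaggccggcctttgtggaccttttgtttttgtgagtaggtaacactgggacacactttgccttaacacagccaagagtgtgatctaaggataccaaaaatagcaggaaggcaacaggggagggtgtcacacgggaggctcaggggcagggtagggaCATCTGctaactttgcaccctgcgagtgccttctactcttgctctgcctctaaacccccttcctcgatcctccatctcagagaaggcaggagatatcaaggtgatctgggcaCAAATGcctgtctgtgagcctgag
Cav3, chr6:112459255-112459554, + strand: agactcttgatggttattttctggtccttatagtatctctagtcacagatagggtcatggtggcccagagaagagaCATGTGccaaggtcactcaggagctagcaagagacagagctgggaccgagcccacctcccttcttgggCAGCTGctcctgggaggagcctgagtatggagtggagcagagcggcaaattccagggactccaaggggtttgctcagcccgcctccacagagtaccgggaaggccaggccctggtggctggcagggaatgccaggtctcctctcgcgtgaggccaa

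The upstream *Dmd* window held 3 E-boxes and 1 match to the CArG box, the site of serum response factor, which 1.63% of all windows hold. The internal *Dmd* window held 0 E-boxes and 3 GC-boxes (GGGCGG on either strand, in 35.7% of all windows), with 14 CpG against 2 in the upstream window. *Sgca* and *Cav3* held 2 E-boxes each and 0 GC-boxes, with 4 and 6 CpG. For comparison, the *Dag1* windows held 30 and 47 CpG and that of *Sgcb* 24, where the median over all windows was 7. No member window matched the MEF2 motif, which is in 0.557% of all windows. A match describes the letters only and shows no binding.

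All 8 members passed edgeR's filter on low counts, *Sgca* and *Cav3* only through their LFD values. The study called a gene at an adjusted p under 0.01 with a log2 fold change beyond 1.5 either way. By that rule the quasi-likelihood test of edgeR called 0 members and 0 of the 17668 tested genes (0%). At an unadjusted p under 0.05, 3 members (*Sgca*, *Cav3* and *Dmd*) were lower in HFD-fed mice and 0 higher, where 6.62% of all tested genes were lower and 3.86% higher. DESeq2 by the same rule called 2 members lower, *Sgca* and *Cav3*, and 0 higher, where it called 1.65% of all tested genes lower and 0.594% higher. At an unadjusted p under 0.05, DESeq2 also had these 3 members lower and 0 higher, where 7.9% of all tested genes were lower and 5.37% higher. In the edgeR fit blocked by replicate, 4 members (*Utrn* besides these 3) were lower and 0 higher at an unadjusted p under 0.05, where 8.76% of all tested genes were lower and 8.75% higher. *Sgca*, *Cav3* and *Dmd* lay fully below the LFD-fed mice in normalised counts (log2 CPM), as did 9.23% of all tested genes. The median log2 fold change, HFD over LFD, was -0.46 over the 8 members and -0.05 over all tested genes.

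**Figure D1:**
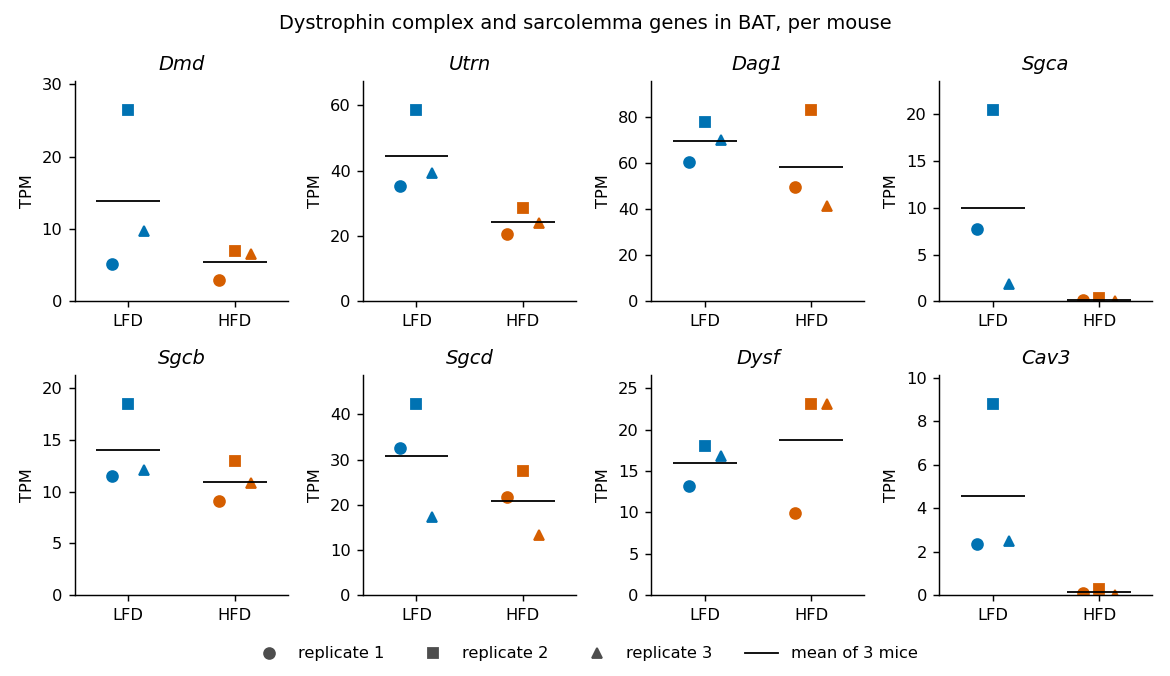
TPM (y axis, from 0) of each member in the 3 LFD-fed (blue) and 3 HFD-fed mice (orange), with the mean as a line and the replicate number as the marker shape. *Sgca* and *Cav3* reach at most 0.340 and 0.290 TPM in HFD-fed mice, whereas *Dag1*, *Sgcb*, *Sgcd* and *Dysf* overlap between the diets.

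*Sgca* encodes alpha-sarcoglycan (chromosome 11 from 94962791 to 94976327, - strand). It had 0.120, 0.340 and 0 TPM in the HFD-fed mice, against 7.71, 20.46 and 1.88 TPM in the LFD-fed mice. The HFD values rest on 9 counts in all, and those of the LFD-fed mice on 399. For the mouse at 0, RSEM's own interval reached up to 0.897 TPM. Every HFD-fed mouse lay below every LFD-fed mouse. The log2 fold change was -5.50 with a standard error of 1.23 (edgeR unadjusted p = 0.00317, adjusted p = 0.192), and the adjusted p was 5.36e-05 with DESeq2. With 1 mouse left out the value ran from -6.91 without HFD replicate 2 to -4.79 without LFD replicate 2, and it was -4.89 without HFD replicate 3.

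*Cav3* encodes caveolin-3 (chromosome 6 from 112459505 to 112472872, + strand). In HFD replicates 1, 2 and 3 it had 0.0800, 0.290 and 0 TPM, from 7 counts in all, and in LFD replicates 1, 2 and 3 it had 2.34, 8.82 and 2.47 TPM, from 210 counts. RSEM's interval for HFD replicate 3 reached up to 0.155 TPM. Again the diets did not overlap, and LFD replicate 2 was the highest mouse, as it was for *Sgca*. The log2 fold change was -4.89 with a standard error of 1.00 (edgeR unadjusted p = 0.00199, adjusted p = 0.177, 2.70e-05 with DESeq2). It was -5.96 without HFD replicate 2, -4.28 without HFD replicate 3 and -4.19 without LFD replicate 2. Blocked by replicate number, edgeR gave adjusted p-values of 0.0252 for *Sgca* and 0.0442 for *Cav3*, where 0.877% of all tested genes were lower and 0.164% higher at an adjusted p under 0.05 in that fit.

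*Dmd*, the dystrophin gene, had 215, 366 and 372 rounded counts in HFD replicates 1, 2 and 3 and 516, 2287 and 496 in LFD replicates 1, 2 and 3. In counts scaled to the library (log2 CPM), the HFD-fed mice had 3.62, 4.14 and 4.0 and the LFD-fed mice 5.05, 6.77 and 4.60, with no overlap. LFD replicate 2 stood well above the other mice. The log2 fold change was -1.86 with a standard error of 0.58 (edgeR unadjusted p = 0.0159, adjusted p = 0.344). Without LFD replicate 2 it was -0.91, with an adjusted p of 0.613, and it kept its sign with each of the other mice left out.

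In TPM, *Dmd* had 2.92, 6.89 and 6.52 in HFD replicates 1, 2 and 3 and 5.19, 26.49 and 9.76 in LFD replicates 1, 2 and 3. Here LFD replicate 1 lay below HFD replicates 2 and 3, so that the diets overlapped. Unlike the counts, TPM is divided by a mean transcript length, weighted by the share of each transcript that it estimates in the mouse. That mean length was 3439, 3398 and 3363 bases in the HFD-fed and 5674, 6280 and 4330 bases in the LFD-fed mice. The 3 HFD-fed mice lay within a narrow range below every LFD-fed mouse.

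The mean length of *Dmd* transcripts was 3400 ± 38.2 bases (SD, n = 3) with HFD and 5428 ± 998 bases (SD, n = 3) with LFD, a difference of -2028 bases. The exact two-sided permutation p was 0.1, the smallest that 3 mice against 3 allow, and 0.2 adjusted over the 6 members with more than 1 transcript. With 1 mouse left out the difference stayed between -2577 and -1602 bases. The tables list 14 *Dmd* transcripts, whose lengths in GENCODE M21 range from 369 to 14910 bases. Those annotated as coding have 14910, 4438 and 1858 bases, and the rest are retained introns or processed transcripts without a coding label. The mean length covers all of them, and the part of the noncoding ones in its difference was not tested. The longest, from 82948903 to 85206141, codes for full-length dystrophin, and the longest of those from the internal start has 4438 bases. By these lengths, the full-length form could make up at most 20.6% to 21.1% of *Dmd* transcripts in the HFD-fed mice. For LFD replicates 1, 2 and 3 this limit was 36.5%, 40.6% and 27.2%. Single transcripts were not analysed here, and reads of 75 bases assign them only by estimate.

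**Figure D2:**
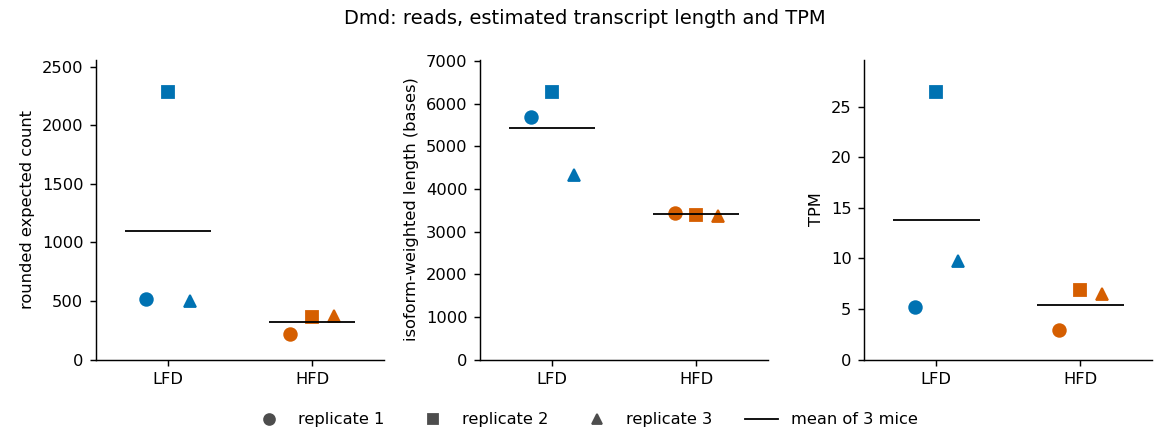
*Dmd* in each mouse as rounded expected counts (left), isoform-weighted mean transcript length in bases (middle) and TPM (right), with the mean of 3 mice as a line and the replicate number as the marker shape. The HFD-fed mice (orange) lie at 3363 to 3439 bases, below the LFD-fed mice (blue) at 4330 to 6280 bases.

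For the other members with several transcripts, the mean lengths differed by far less. *Sgcb* had 3716 to 3731 bases in the HFD-fed mice and 3786 bases, its full coding transcript, in every LFD-fed mouse. *Dag1* was longer in every HFD-fed mouse, by a mean of 136.3 bases (exact two-sided permutation p = 0.1, adjusted p = 0.2). *Sgca*, *Sgcd* and *Dysf* had overlapping lengths (exact two-sided permutation p = 0.8, 0.3 and 0.2).

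*Utrn* encodes utrophin (chromosome 10 from 12382188 to 12869365, - strand), and the tables give it 1 transcript. It had 20.56, 28.64 and 24.01 TPM in the HFD-fed mice, against 35.3, 58.67 and 39.17 TPM in the LFD-fed mice. The diets did not overlap in TPM, where 11.6% of all tested genes lay fully lower with HFD. In log2 CPM, LFD replicate 3 at 8.14 lay below HFD replicate 1 at 8.30, and the diets overlapped. On that scale the log2 fold change was -0.64 ± 0.34 (standard error, edgeR adjusted p = 0.578). The TPM scale itself sits lower with HFD, with a median difference over all tested genes of -0.18 on the log2(TPM + 1) scale against -0.05 for the fitted log2 fold changes.

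*Dag1*, the gene of dystroglycan (chromosome 9 from 108204634 to 108263958, - strand), had the highest TPM of the members in both diets. It had 49.67, 83.05 and 41.54 TPM in the HFD-fed mice, against 60.32, 77.96 and 69.97 TPM in the LFD-fed mice. In TPM, the lowest mouse and the highest mouse were both HFD-fed. In log2 CPM, the highest *Dag1* value was that of LFD replicate 1, at 8.17. Its log2 fold change was -1.18e-04 ± 0.37 (standard error, edgeR adjusted p = 1.00), and its sign changed with the settings.

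*Sgcb*, beta-sarcoglycan (chromosome 5 from 73632749 to 73647790, - strand), had 9.05, 12.9 and 10.8 TPM in the HFD-fed mice, against 11.52, 18.49 and 12.04 TPM in the LFD-fed mice. In TPM, only HFD replicate 2 reached into the LFD range. In log2 CPM, all HFD-fed mice, at 5.37, 5.18 and 4.87, lay within the LFD range of 4.71 to 5.60. The log2 fold change was -0.17 ± 0.29 (standard error, edgeR adjusted p = 0.915).

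*Sgcd*, delta-sarcoglycan (chromosome 11 from 46896253 to 47988969, - strand), had 21.76, 27.45 and 13.31 TPM in the HFD-fed mice, against 32.62, 42.4 and 17.35 TPM in the LFD-fed mice. In both diets replicate 3 was the lowest and replicate 2 the highest mouse in TPM. In log2 CPM replicate 3 was again the lowest, but replicate 1 was the highest, at 5.53 with HFD and 5.90 with LFD. The log2 fold change was -0.28 ± 0.52 (standard error, edgeR adjusted p = 0.923). *Sgca* and *Sgcd*, partners in the muscle sarcoglycan complex, therefore had fitted differences of -5.50 and -0.28.

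*Dysf*, dysferlin (chromosome 6 from 84008590 to 84211060, + strand), was the member with a positive fitted difference. It had 9.88, 23.15 and 23.16 TPM in the HFD-fed mice, against 13.16, 18.04 and 16.88 TPM in the LFD-fed mice. HFD replicate 1 was the lowest of all mice and the other HFD-fed mice the highest. The log2 fold change was 0.45 ± 0.26 (standard error, edgeR adjusted p = 0.622). Exons of 2 genes on the opposite strand overlap those of *Dysf*, and whether reads were counted by strand is not given in the sources used here. No exon of another gene overlaps those of the other 7 members.

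Levels can be compared between members in TPM, which corrects for length. In HFD-fed mice the order was *Dag1* (58.1 ± 22 TPM, SD, n = 3), *Utrn* (24.4 ± 4.05), *Sgcd* (20.8 ± 7.11), *Dysf* (18.7 ± 7.66), *Sgcb* (10.9 ± 1.93), *Dmd* (5.44 ± 2.19), *Sgca* (0.153 ± 0.172) and *Cav3* (0.123 ± 0.150). The ranges of *Utrn* and *Sgcd*, of *Sgcd* and *Dysf*, of *Dysf* and *Sgcb* and of *Sgca* and *Cav3* overlapped. The order was the same in LFD-fed mice, with 69.4 ± 8.83, 44.4 ± 12.5, 30.8 ± 12.6, 16.0 ± 2.55, 14.0 ± 3.88, 13.8 ± 11.2, 10.0 ± 9.50 and 4.54 ± 3.70 TPM (SD, n = 3). There, *Dag1* and *Utrn* were the only neighbours whose ranges did not overlap.

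**Figure D3:**
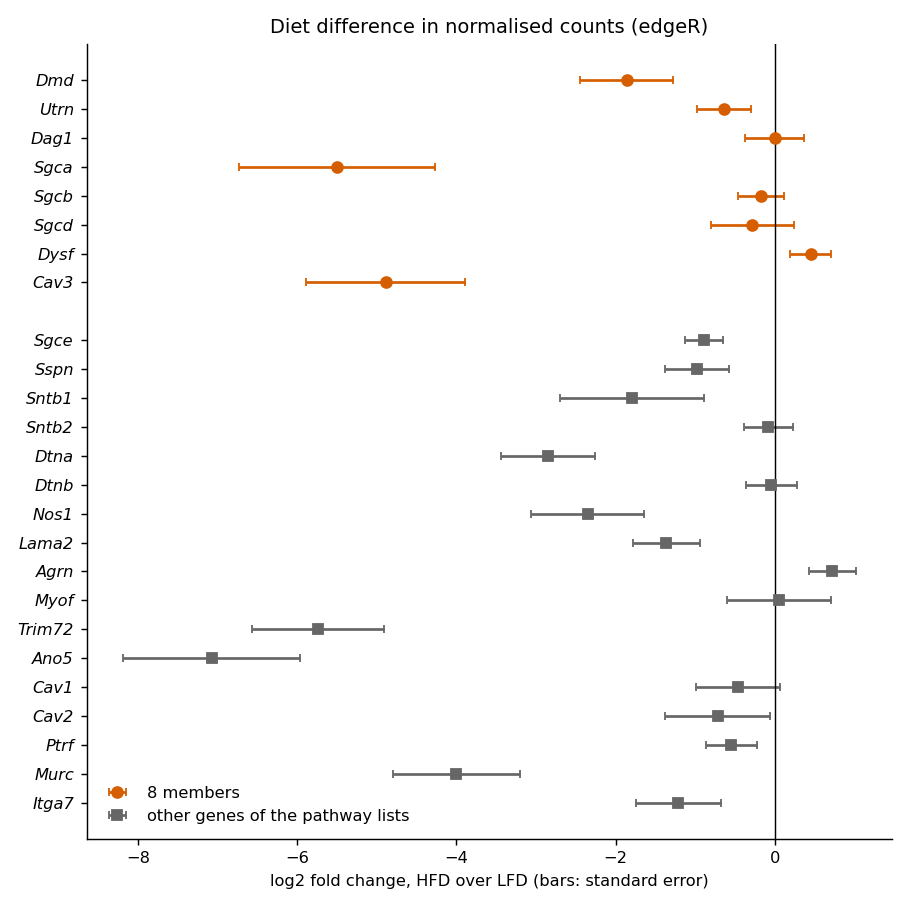
Log2 fold change, HFD over LFD, from edgeR with its standard error (bars) for the 8 members (orange circles) and other named genes of the pathway lists (grey squares). *Sgca*, *Cav3*, *Trim72*, *Ano5* and *Murc* lie between -7.08 and -4.0, and *Dag1*, *Sgcb*, *Sgcd*, *Sntb2*, *Dtnb*, *Myof* and *Cav1* have bars that cross 0.

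Each member that has a related gene of wider use was then set against it within the same mouse. The log2 ratio of *Sgca* to *Sgce*, epsilon-sarcoglycan, was -6.37 ± 1.03 (SD, n = 3) with HFD and -2.48 ± 1.81 (SD, n = 3) with LFD, on the log2(TPM + 0.1) scale. That of *Cav3* to *Cav1*, the caveolin of adipocytes and endothelium, was -11.65 ± 1.09 (SD, n = 3) with HFD and -7.86 ± 1.13 (SD, n = 3) with LFD. For both ratios the diets did not overlap, with differences of -3.89 and -3.79, HFD minus LFD, and an exact two-sided permutation p of 0.1 each (adjusted p = 0.25 over the 5 ratios compared). Their size depends on the pseudocount, with -1.76 and -1.59 at 1 TPM and -5.33 and -5.32 at 0.01 TPM. At 1 TPM the exact permutation p for *Sgca* over *Sgce* was 0.2. For *Dmd* over *Utrn*, *Sgcd* over *Sgcb* and *Dysf* over *Myof* the differences were -0.27, -0.19 and -0.08, within overlapping ranges (exact two-sided permutation p = 0.6, 0.6 and 1). The ratio of *Dmd* to *Utrn* was -2.23 ± 0.483 (SD, n = 3) with HFD and -1.96 ± 0.800 (SD, n = 3) with LFD. In log2 CPM, which is not divided by the transcript length, its difference was -0.94 (exact two-sided permutation p = 0.2). A block of same-numbered mice gave exact sign-flip p-values of 0.25, the smallest possible with 3 pairs, for *Sgca* over *Sgce* and for *Cav3* over *Cav1*.

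The mean log2(TPM + 0.1) of the 20 skeletal muscle markers was 0.720, 2.62 and -1.21 in HFD replicates 1, 2 and 3 and 7.22, 8.57 and 5.67 in LFD replicates 1, 2 and 3. Measured against this mean, *Sgca* was at -4.26, -4.20 and -4.68 in LFD replicates 1, 2 and 3, a spread (SD) of 0.262, while *Dag1* was at -1.31, -2.28 and 0.462, an SD of 1.39. Among the 8 members this SD was lowest for *Sgca* and highest for *Dysf*, at 1.43. It was 0.832 for *Cav3*, near the 0.812 of *Sgcd*, and 1.23 for *Dmd*. In HFD-fed mice *Sgca* stood 1.44 and *Cav3* 2.12 higher against the markers than in LFD-fed mice. The other 6 members stood 5.34 (*Dmd*) to 6.58 (*Dysf*) higher against them. The marker mean itself was 6.44 lower with HFD, so a gene with the same TPM in every mouse would stand 6.44 higher on this measure, and the median over all tested genes was 6.22. The diets did not overlap for any member, but neither did they for 98.9% of all tested genes with higher and 0.017% with lower values in HFD-fed mice, so that the missing overlap says nothing about the members. For *Sgca* and *Cav3* the value rests on few HFD reads, and with a pseudocount of 0.01 TPM it was 0.29 (exact p = 0.5) and 0.88 (exact p = 0.2). At 1 TPM it was 2.65 and 3.36, and 4.49 to 5.61 for the other 6 members. With the marker score as a covariate, edgeR's log2 fold changes were 1.04 for *Sgca*, -0.71 for *Cav3* and -0.36 for *Dmd*, with adjusted p-values of 0.912, 0.974 and 0.989. The score does not overlap between the diets, so that it and the diet can hardly be told apart in this fit. The part of muscle RNA in the members' values was not tested.

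**Figure D4:**
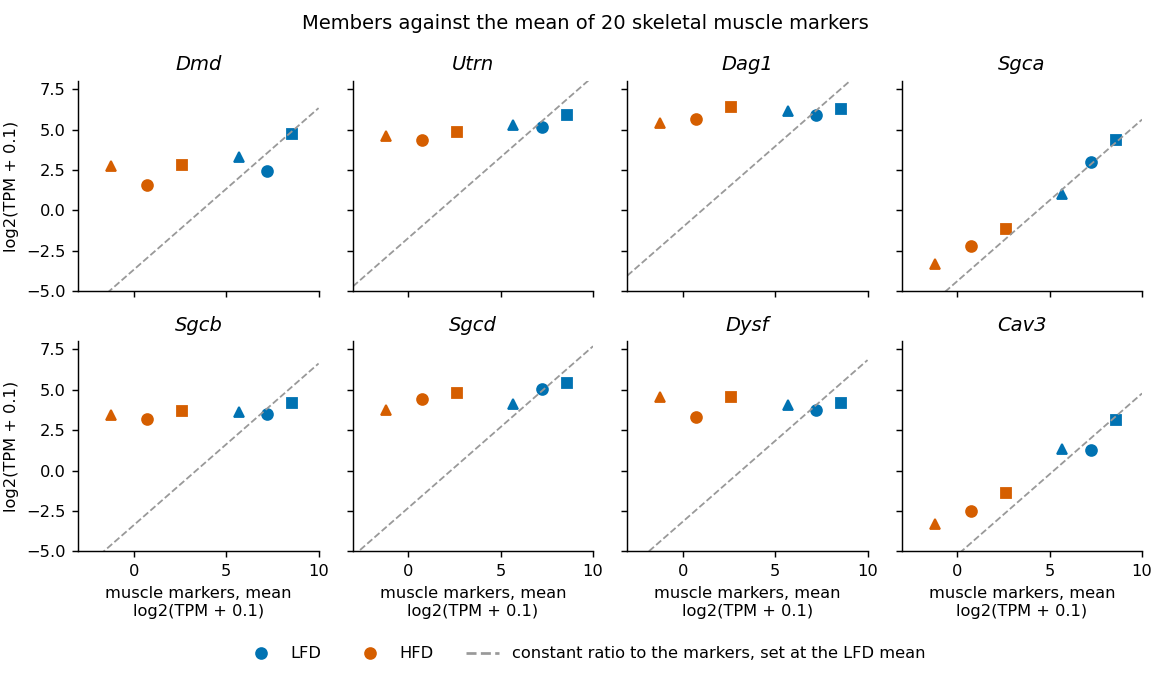
Each member (y axis, log2(TPM + 0.1)) against the mean log2(TPM + 0.1) of 20 skeletal muscle markers (x axis) in the 3 LFD-fed (blue) and 3 HFD-fed mice (orange), with the replicate number as the marker shape (circle 1, square 2, triangle 3). The dashed line marks a constant ratio to the markers, set at the LFD mean. *Sgca* and *Cav3* lie 1.44 and 2.12 above it on average in HFD-fed mice and the other 6 members 5.34 to 6.58, where a gene with equal TPM in every mouse would lie 6.44 above it.

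The rest of the complex was read from 7 lists of 73 genes, of which 68 were tested. Of these, edgeR called 0 in either direction. DESeq2, which the study used, called several of them lower by the study's rule. Over all tested genes it called 1.65% lower and 0.594% higher. Its adjusted p-values were 6.63e-10 for *Trim72*, 1.39e-09 for *Ano5*, 5.70e-06 for *Des*, 2.19e-05 for *Murc* and 1.59e-04 for *Dtna*. The highest DESeq2 log2 fold change of the lists was 0.73, for *Agrn* (DESeq2 adjusted p = 0.295). In edgeR at an unadjusted p under 0.05, 21 of the 68 were lower and 1 was higher in HFD-fed mice. The shares of all tested genes were 6.62% lower and 3.86% higher, and they also apply to the counts per list below. In log2 CPM the diets did not overlap for 23 of the 68, all lower with HFD. Without overlap on that scale, 9.23% of all tested genes were lower and 6.72% higher. The median log2 fold change of the 68 was -0.54.

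Among the other sarcoglycans, *Sgce* lay fully lower with HFD, at 17.6 ± 2.85 against 38.1 ± 4.68 TPM (SD, n = 3 each), and its fitted log2 difference was -0.89 (edgeR adjusted p = 0.257). Sarcospan (*Sspn*), a membrane partner of the sarcoglycans, had -0.98 (edgeR adjusted p = 0.473). *Sgcz* had 0 counts in every mouse and was not tested.

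Within the cytoplasmic part, 2 of 7 tested genes were lower at an unadjusted p under 0.05. These were the dystrobrevin gene *Dtna*, with a log2 fold change of -2.85, and *Nos1*, the neuronal nitric oxide synthase that dystrophin anchors in muscle, with -2.35. The edgeR adjusted p-values were 0.177 and 0.319. The *Dtna* paralog *Dtnb*, at -0.05, and the syntrophin *Sntb2*, at -0.08, had the values nearest 0, while *Sntb1* had -1.80.

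Of the 9 tested extracellular ligands, 5 were lower and 1 was higher at an unadjusted p under 0.05. *Lama2*, the laminin chain of muscle basement membrane, had 10.48, 16.18 and 6.81 TPM in the HFD-fed mice, against 19.34, 53.25 and 36.46 TPM in the LFD-fed mice. This was the lowest log2 fold change of the list, -1.36 (edgeR adjusted p = 0.341). The gene at the other end was agrin (*Agrn*), a heparan sulfate proteoglycan that binds dystroglycan, with 0.72 (edgeR adjusted p = 0.466). Its diets overlapped.

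The 16 genes listed for the glycosylation of dystroglycan, which gives it its laminin-binding sugar, were all tested. Their median log2 fold change was -0.28 and the lowest was -0.93, for *Ispd*. Of the 16, 1 was lower at an unadjusted p under 0.05, which is near the 6.62% of all tested genes. In log2 CPM, 4 of the 16 lay fully lower with HFD and 0 fully higher, where 9.23% of all tested genes lay fully lower.

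Among 11 tested genes of membrane repair, 3 were lower at an unadjusted p under 0.05. *Ano5*, an anoctamin mutated in a limb girdle dystrophy, had 0.02, 0.04 and 0 TPM in the HFD-fed mice, against 2.94, 13.09 and 2.50 TPM in the LFD-fed mice, with a log2 fold change of -7.08 (edgeR adjusted p = 0.170). *Trim72*, which encodes the muscle repair protein MG53, had -5.74 (edgeR adjusted p = 0.170). All 3 lower genes passed the filter on low counts only through their LFD values. *Ano5* had at most 5 and *Trim72* at most 12 counts in any HFD-fed mouse. *Myof*, the ferlin nearest to *Dysf* in name and build, had 0.05, and the highest value of the list was 0.39 for *Anxa5*.

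All 8 genes of caveolae were tested and had negative log2 fold changes, from -4.0 for *Murc* (Cavin4), the cavin of muscle, to -0.46 for *Cav1*. *Murc*, with 8 to 16 counts in the HFD-fed mice, passed the filter on low counts only through its LFD values. *Cav2* had -0.72 and *Ptrf* (Cavin1) -0.55, and 3 of the 8 were lower at an unadjusted p under 0.05. *Cav1* had 620.2 ± 90.1 TPM with HFD and 922.0 ± 296.4 TPM with LFD (SD, n = 3 each), while *Cav3* had 0.123 and 4.54 TPM. Of the 14 tested integrin and costamere genes, 4 were lower at an unadjusted p under 0.05. They ranged from -3.37 for desmin (*Des*) to 0.26 for *Tln1*. *Itga7*, the laminin-binding integrin chain of muscle, had -1.22 (edgeR adjusted p = 0.494).

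Over the 6 mice, the genes whose profile lay closest to that of *Dmd* were *4930429F24Rik*, *Gm15440*, *Prkcq*, *Sfrp1* and *Coro6*, with a root mean square difference in centred log2 CPM of 0.13, 0.21, 0.25, 0.26 and 0.28. The profile of *Utrn* was closest to those of *Polr3gl*, *Zkscan8*, *Hif1an*, *Ipo13* and *Nfib*, within 0.07 to 0.09. These are descriptions over 6 libraries among 17668 tested genes.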

How the data were processed

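RNA of BAT from 3 HFD-fed and 3 LFD-fed mice was depleted of ribosomal RNA and read in single-end runs, 75 bases a read. Per the labels and the study's methods, the authors trimmed adapters with Trimmomatic 0.36 and ran RSEM 1.3.0 on GRCm38.p4 with an Ensembl annotation. The authors deposited a table per mouse of expected counts, in which RSEM shares reads that match several genes between them, TPM values, and isoform-weighted gene lengths in bases.

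Expected counts were rounded and tested over all genes in R 4.3.3 with edgeR 4.0.16 (quasi-likelihood, TMM, its low-count filter, Benjamini-Hochberg adjustment), and standard errors were taken as the log2 fold change over the root of F. Log2 CPM used a prior count of 2. Ratios and lengths were compared by exact two-sided permutation tests. The edgeR script was tested on simulated data. DESeq2 1.42.0 and limma 3.58.1 served as alternatives. Same-numbered mice deviated together from their diet means across genes (r = 0.498, 0.229 and 0.522), and the replicate number entered as a block in an alternative fit. Mice of 1 diet differed beyond sampling noise (chi-square over its degrees of freedom, 52.6 at least). Beyond the replicate numbers, the labels do not say how the libraries relate, and p-values measure the spread between these samples. The mice were chosen by fat mass within each diet, so this spread is not that of mice drawn at random.

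Members and lists were chosen with earlier results of these data known. The named genes are the 8 members, 20 preset genes of the pathway lists, the lowest and highest gene of each list, and the 5 nearest to *Dmd* and to *Utrn*. Some genes that this rule names are not reported here. Positions and transcript lengths come from GENCODE M21 (GRCm38), and promoters from RefSeq, in which all 8 members matched with 11 windows.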

Additional observations from a re-analysis of the deposited data

How the results depend on the processing

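Of the recomputed values, 339 were rated as unchanged, 21 reversed in direction, 14 counts moved and 2 values passed the thresholds only in the other setting. Ratios, lengths and values against the muscle markers were rated by direction only. Against the markers, 98.9% of all tested genes lay fully higher with HFD. Many of the unchanged counts were 0 in each setting. DESeq2 called 292 genes lower and 105 higher, 2 members among the former, and limma on log2(TPM + 1) called 1 gene higher, where edgeR called 0. At an adjusted p under 0.05 with no fold threshold edgeR called 0 genes. In TPM, 292 tested genes lay fully higher and 2046 fully lower with HFD, against 1188 and 1630 in log2 CPM. With 1 mouse left out, 3 to 6 members lay fully lower and 0 to 1 fully higher (1 without HFD replicate 1 or LFD replicate 1), as did 1982 to 3205 and 1484 to 2984 tested genes, since fewer mice have to be separated, and the 6 members stand without LFD replicate 3. *Dag1* had a log2 fold change of 0.0061 with DESeq2 and with RLE size factors and of 0.017 with at least 10 counts in every sample, a filter that *Sgca* and *Cav3* did not pass. Once the muscle marker score entered the fit, the fitted values became 0.39 for *Utrn*, 1.38 for *Dag1*, 1.04 for *Sgca*, 0.89 for *Sgcb* and 2.27 for *Sgcd*, and the cause was not tested. Leaving out 1 mouse gave ranges of -0.17 to 0.26 for *Dag1* and -0.66 to 0.0515 for *Sgcd*. The log2 ratios ranged from -0.66 to 0.14 for *Dmd* over *Utrn*, from -0.46 to 0.10 for *Sgcd* over *Sgcb* and from -0.94 to 0.74 for *Dysf* over *Myof*, and the length difference of *Sgca* from -57.8 to 200.7 bases. In limma on log2(TPM + 1), *Dmd* had -0.99 and an unadjusted p of 0.131, against -1.86 in edgeR, and in that scale the transcript length enters. With the replicate block in edgeR, *Dmd* had -1.56 (adjusted p = 0.174) and *Utrn* -0.61 (unadjusted p = 0.0358 against 0.10 without it). The block changed no call at the thresholds of the study. Depth limits *Sgca* and *Cav3* most, with 9 and 7 counts in the HFD-fed mice together.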

Other observations

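The ferlin gene *Myof*, which encodes myoferlin, had a wide spread among LFD-fed mice. It had 6.71, 27.28 and 88.59 TPM in LFD replicates 1, 2 and 3 and 18.77, 30.17 and 45.23 TPM in HFD replicates 1, 2 and 3. *Dysf* had 13.16 to 18.04 TPM in the same LFD-fed mice, so the log2 ratio of *Dysf* to *Myof* ran from -2.38 to 0.961 there and from -0.963 to -0.381 with HFD.

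Of the laminin chains other than *Lama2*, *Lamb2* and *Lamc1* are named after their values were seen. *Lamb2* had a log2 fold change of -0.96 and *Lamc1* one of -0.94, with edgeR adjusted p-values of 0.229 and 0.362, and both lay fully lower in HFD-fed mice in log2 CPM and in TPM.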
